A study of Mus musculus with 8 samples.

Results

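The genes described here are 10 genes of major histocompatibility complex (MHC) class I antigen presentation, B2m, H2-D1, H2-K1, Tap1, Tap2, Tapbp, Psmb8, Psmb9, Psmb10 and Nlrc5, out of 27178 genes counted in 8 libraries of embryonic mouse cortex. They were taken as a fixed list, put together because several of them had been lower in Lockd shRNA cells than in control plasmid cells. Values of that contrast are therefore given as a description, and its counts of calls are not read as a result about the genes. The PlyA-KI and wild type libraries are not part of that contrast, so the genes were tested there, although earlier results of these data were known.

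The Lockd shRNA and control plasmid groups are ICR embryos with the wild type genotype. At embryonic day 14.5 (E14.5) a plasmid at 3 µg/µl was electroporated into their lateral ventricles in utero. It was either a control or one making a short hairpin RNA (shRNA) directed at Lockd, a long noncoding RNA. The cells positive for GFP were isolated by flow cytometry at E16.5 and sequenced. The PlyA-KI and wild type groups are untreated C57BL/6 embryos, whose whole cortices were taken at E13.5 and combined. What the PlyA-KI allele changes is not described in the labels, and it is called by that name only. Each of the 4 groups has 2 libraries, called biological replicates in the series' design text. How many embryos or litters stand behind a library is not given, so error terms measure only the spread between these libraries.

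Total counts were 13401208 to 15911118 in the Lockd shRNA libraries, 12805874 to 14357950 in control plasmid, 35167646 to 39282886 in PlyA-KI and 39334429 to 47460020 in wild type. A gene with 3 counts in a library therefore has a level of 0.189 to 0.234 CPM (the count scaled to a common library total) in the knockdown experiment and 0.0632 to 0.0853 CPM in the knock-in experiment. Lockd itself, the check of the labels, had 4.85 and 2.83 CPM in Lockd shRNA, against 8.90 and 7.80 CPM in control plasmid. It had 0.102 and 0.0569 CPM in PlyA-KI, against 22.1 and 24 CPM in wild type.

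MHC class I molecules are cell-surface proteins that show short peptides from inside the cell to cytotoxic T cells and natural killer cells. A polymorphic heavy chain, encoded in the mouse by H2-D1 or H2-K1, pairs with the invariant light chain β2-microglobulin, encoded by B2m. Proteasomes cut the peptides, the TAP transporter moves them into the endoplasmic reticulum, and a loading complex that includes tapasin fits them to the heavy chain. In developing neurons, class I molecules are also known for roles outside immunity, among them in synapse formation and pruning. Interferons raise most of these genes, and the coactivator NLRC5 acts on their promoters through a composite element known as the SXY module.

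By RefSeq annotation of GRCm38.p6, an mm10-level assembly, 7 of the 10 genes lie on chromosome 17, in the H2 region. Tapbp (33919478 to 33929290), H2-K1 (33996012 to 34000619), Psmb9 (34182030 to 34187330), Tap1 (34187556 to 34197225), Psmb8 (34198195 to 34201454), Tap2 (34204479 to 34216321) and H2-D1 (35263094 to 35267497) follow each other there. B2m lies on chromosome 2 (122147687 to 122153082). Psmb10 (105935728 to 105938392) and Nlrc5 (94434335 to 94527272) lie on chromosome 8.

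Promoter sequences of 8 of the 10 genes were matched in the RefSeq table of GRCm38.p6, which gives 250 bases before and 50 bases after each start; Tap2 and Nlrc5 were not matched. Those of the 3 genes that encode the class I molecule itself are shown because they share the spacing TGACG, 20 bases of any kind, then ATTGG, which matches the X2 and Y boxes of the SXY module. Capitals mark these 2 boxes. The stretches are chr2:122147609-122147638 on the plus strand (B2m), chr17:35262993-35263022 on the plus strand (H2-D1) and chr17:34000359-34000388 on the minus strand (H2-K1).
B2m: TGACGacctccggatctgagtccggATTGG
H2-D1: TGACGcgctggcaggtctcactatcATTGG
H2-K1: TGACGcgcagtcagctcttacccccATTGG
The H2-K1 and H2-D1 stretches were identical at 23 of 30 bases, boxes included. B2m matched H2-K1 at 13 and H2-D1 at 12 of 30 bases, of which 10 are the boxes themselves. Searched on both strands, this spacing was found in 31 of 32851 promoters of the table (0.0944%). It was not found in the windows of Tap1, Tapbp, Psmb8, Psmb9 and Psmb10. Singly, TGACG was in 5 of the 8 members' promoters and in 20.8% of all promoters, and ATTGG in 6 of the 8 and in 37.4% of all. Psmb9 and Tap1 start head to head and their windows overlap, so their TGACG match is the same stretch of DNA.

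The upstream windows of B2m (chr2:122147437-122147685, plus strand) and H2-K1 (chr17:34000348-34000597, minus strand) are shown to place the boxes beside other motifs known from class I promoters. The H2-K1 window lies before a listed start that falls inside the annotated gene span (33996012 to 34000619), so the window falls inside that span too. Capitals mark TGACG and ATTGG as above. In B2m they also mark a match to an interferon response element written as GAAA, any 2 bases, GAAA. In H2-K1 they also mark a kappa B site, the run of capitals that opens with GGGG, and then TTTCACTTC, a shorter interferon response element of GAA, any 2 bases and GAAA read on the other strand.
B2m upstream: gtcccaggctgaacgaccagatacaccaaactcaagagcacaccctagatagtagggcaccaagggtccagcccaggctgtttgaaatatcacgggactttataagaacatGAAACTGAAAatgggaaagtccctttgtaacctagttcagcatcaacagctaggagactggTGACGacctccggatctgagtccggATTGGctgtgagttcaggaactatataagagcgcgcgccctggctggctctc
H2-K1 upstream: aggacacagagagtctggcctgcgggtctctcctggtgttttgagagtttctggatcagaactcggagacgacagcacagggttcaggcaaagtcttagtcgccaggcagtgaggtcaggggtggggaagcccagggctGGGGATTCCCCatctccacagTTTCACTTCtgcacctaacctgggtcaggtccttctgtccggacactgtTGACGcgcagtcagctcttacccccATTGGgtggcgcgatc
On both strands, the longer interferon element was found in 3.44% of all promoters, and among the 8 members only in B2m. The shorter one was found in 7.52% of all promoters, and the exact kappa B run in 10 promoters (0.0304%). Both were in H2-D1 and H2-K1 and in none of the other 6 members' promoters. Other forms of the kappa B site were not searched for, so B2m and the others may hold one that is left unmarked. None of these motifs overlap each other in the windows shown. These matches describe the letters in these windows and were not tested for binding or function.

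The light chain and both heavy chains had the highest levels per length of the 10 genes in the sorted cells, and all 3 were lower in Lockd shRNA than in control plasmid. B2m had 39.5 and 29.4 CPM in Lockd shRNA, against 77.5 and 70.3 CPM in control plasmid. H2-D1 had 77.3 and 55.7 CPM in Lockd shRNA, against 154 and 124 CPM in control plasmid. H2-K1 had 22.7 and 21.7 CPM in Lockd shRNA, against 44.0 and 39.2 CPM in control plasmid. For each of the 3 genes both Lockd shRNA libraries lay below both control plasmid libraries. The mean in Lockd shRNA was 46.7% of the control plasmid mean for B2m, 48.0% for H2-D1 and 53.4% for H2-K1.

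The log2 fold changes from edgeR, Lockd shRNA over control plasmid, were −1.09 (SE 0.17) for B2m, −1.04 (SE 0.17) for H2-D1 and −0.89 (SE 0.17) for H2-K1. With 1 library left out at a time, B2m ranged from −1.31 without Lockd shRNA 1 to −0.89 without Lockd shRNA 2. H2-D1 ranged from −1.30 to −0.83 over the same pair of settings, and H2-K1 from −0.95 without control plasmid 2 to −0.81 without control plasmid 1. In bulk libraries, fewer cells of a type and less RNA per cell cannot be told apart.

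**Figure D1:**
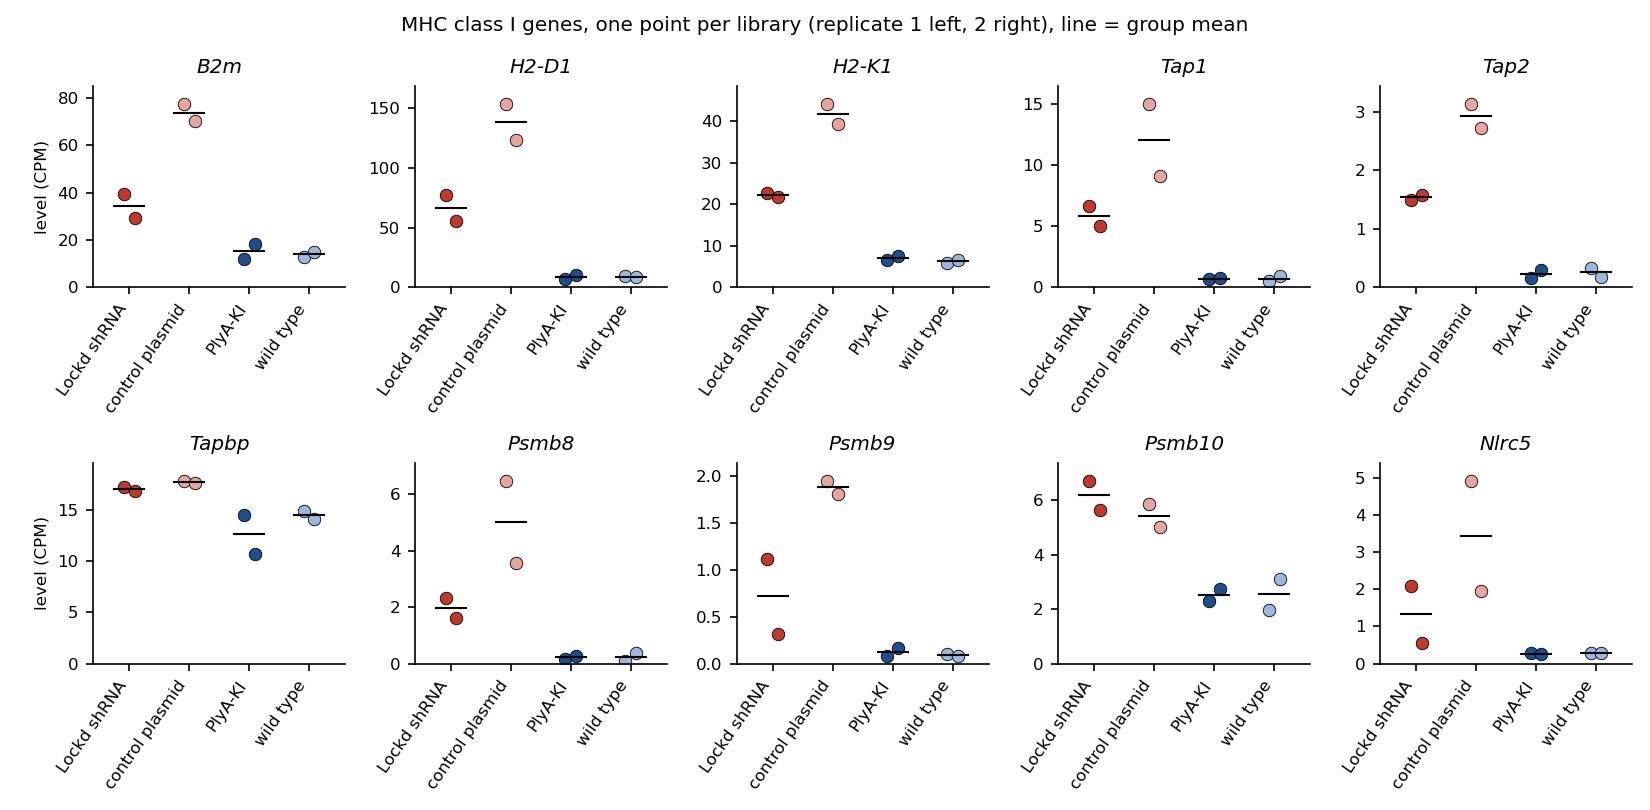
Level (CPM, linear axis from 0) of each of the 10 genes in each of the 8 libraries; points are libraries and lines are group means. Lockd shRNA lies below control plasmid without overlap for 8 genes, as do 19.9% of all genes with a mean of 1 CPM or more. The PlyA-KI and wild type libraries overlap for all 10. For all 10, the mean of each group of the knock-in experiment lies below that of each group of the knockdown experiment. The share of all genes with that order of means was not counted.

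The peptide transporter subunits were lower in Lockd shRNA to a like degree. Tap1 had 6.64 and 5.03 CPM in Lockd shRNA, against 15.0 and 9.12 CPM in control plasmid. Tap2, the partner subunit, had 1.49 and 1.57 CPM in Lockd shRNA, against 3.12 and 2.72 CPM in control plasmid. The groups did not overlap for either subunit. The log2 fold change was −1.03 (SE 0.28) for Tap1 and −0.91 (SE 0.40) for Tap2. The Tap1 difference depended on control plasmid 1, the highest library, and was −0.64 without it and −1.33 without control plasmid 2.

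Tapasin, encoded by Tapbp, bridges the transporter and the empty class I molecule. Tapbp had 17.2 and 16.9 CPM in Lockd shRNA, against 17.9 and 17.6 CPM in control plasmid. These values do not overlap, but the Lockd shRNA mean was 96.2% of the control plasmid mean. The log2 fold change was −0.04 (SE 0.18), with a range of −0.05 to −0.03 over the 4 fits that leave out a library.

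Of the 3 immunoproteasome subunits, which replace the catalytic subunits of the standard proteasome, 2 were lower and 1 was not. Psmb8 had 2.31 and 1.63 CPM in Lockd shRNA, against 6.48 and 3.55 CPM in control plasmid (log2 fold change −1.33, SE 0.39). Psmb9 had 15 and 5 counts (1.12 and 0.314 CPM) in Lockd shRNA, against 25 and 26 counts (1.95 and 1.81 CPM) in control plasmid (log2 fold change −1.41, SE 0.58). Psmb10 had 6.72 and 5.66 CPM in Lockd shRNA, against 5.86 and 5.01 CPM in control plasmid (log2 fold change 0.20, SE 0.27). The Psmb8 and Psmb9 groups did not overlap, while those of Psmb10 did. Psmb8 ranged from −1.69 without control plasmid 2 to −0.84 without control plasmid 1, and Psmb9 from −2.53 without Lockd shRNA 1 to −0.73 without Lockd shRNA 2.

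Nlrc5, the coactivator, varied most within its groups. It had 28 and 9 counts (2.09 and 0.566 CPM) in Lockd shRNA, against 63 and 28 counts (4.92 and 1.95 CPM) in control plasmid. Lockd shRNA 1 lay above control plasmid 2, so the groups overlapped. The log2 fold change was −1.37 (SE 0.58), and it moved to −2.56 without Lockd shRNA 1 and to −0.58 without control plasmid 1.

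**Figure D2:**
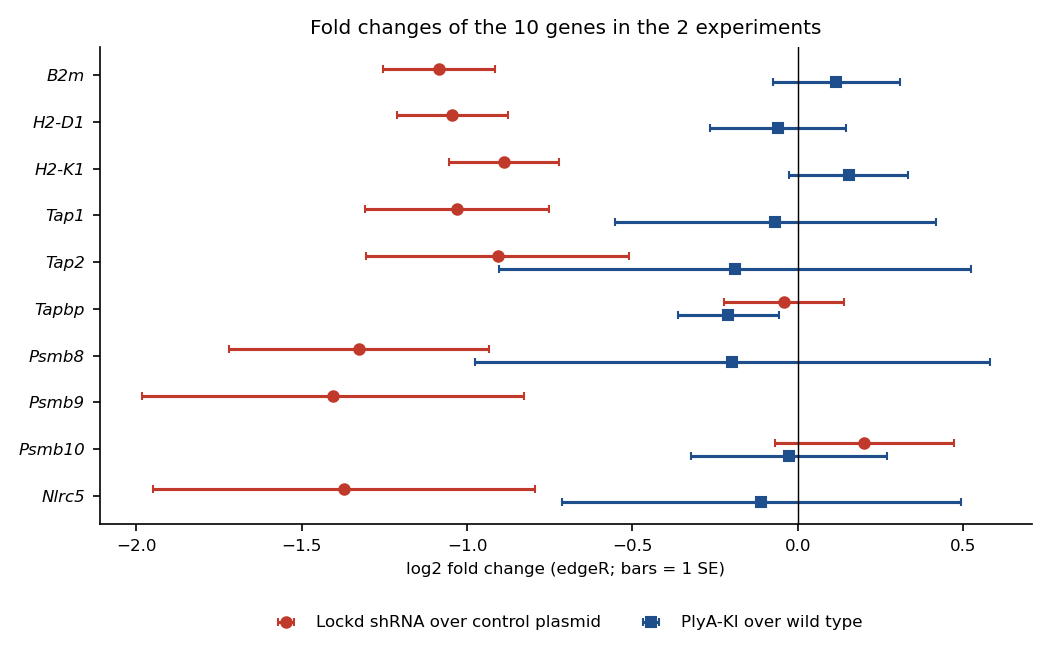
Log2 fold change (x axis, edgeR) of each of the 10 genes for Lockd shRNA over control plasmid and for PlyA-KI over wild type; bars are 1 SE. Between Lockd shRNA and control plasmid 8 genes lie between −1.41 and −0.89 and 2 near 0, while every tested gene lies between −0.21 and 0.15 for PlyA-KI over wild type, where Psmb9 was not tested.

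The 10 genes had a median log2 fold change of −1.04, beside −0.00043 over all 13758 genes tested, and 9 of the 10 lay below 0. The median ranged from −1.27 without Lockd shRNA 1 to −0.81 without control plasmid 1. Lower without overlap were 8 of the 10 genes, beside 19.9% of 13122 genes with a mean of 1 CPM or more. At an adjusted p under 0.05, edgeR called 0 of the 10 and 0 of all genes (0%), with 8 of the 10 and 1033 of all genes at an unadjusted p under 0.05. DESeq2 called 3 of the 10 and 0.247% of 19425 genes, with no adjusted p for 4 of the 10 and for 8662 of all. Limma-trend called 0. Nothing about the members is read from these counts, since this contrast chose them.

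The libraries of each sorted group also differed from each other in the same direction for nearly all of the 10 genes. Lockd shRNA 1 was above Lockd shRNA 2 for 9 of the 10 genes, all but Tap2, beside 52.2% of all genes with a mean of 1 CPM or more. Control plasmid 1 was above control plasmid 2 for all 10, beside 52.5% of all such genes. The summed level of the 10 genes was 177 and 139 CPM in Lockd shRNA, against 330 and 275 CPM in control plasmid. The groups did not overlap in this sum, which follows in part from the choice of the genes by this contrast.

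In PlyA-KI cortex edgeR called 0 of the 9 class I genes that passed the filter on low counts, beside 0.052% of all genes. B2m had 11.9 and 18.4 CPM in PlyA-KI, against 12.9 and 14.8 CPM in wild type. H2-D1 had 6.72 and 10.2 CPM in PlyA-KI, against 9.18 and 8.36 CPM in wild type. H2-K1 had 6.52 and 7.48 CPM in PlyA-KI, against 5.90 and 6.57 CPM in wild type. The PlyA-KI and wild type libraries overlapped for these 3 genes and for the other 7.

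In the quasi-likelihood test of edgeR, adjusted over 15398 genes by the Benjamini-Hochberg method, the log2 fold change was 0.12 (95% interval −0.31 to 0.54, adjusted p = 0.839) for B2m. It was −0.06 (−0.52 to 0.40, adjusted p = 0.931 by edgeR) for H2-D1 and 0.15 (−0.25 to 0.55, adjusted p = 0.764 by edgeR) for H2-K1. The lower ends of these intervals lie above the values of −1.09, −1.04 and −0.89 seen for these genes in Lockd shRNA. Those values have an SE of 0.17 each and come from sorted cells of another strain and age, so they set no fixed mark for whole cortex. The difference between the 2 contrasts was not tested, since the Lockd shRNA contrast chose the genes. Leaving out a library moved B2m from −0.25 without PlyA-KI 2 to 0.41 without PlyA-KI 1, and H2-D1 from −0.41 to 0.22.

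The transporter subunits had few counts in whole cortex. Tap1 had 25 and 25 counts (0.636 and 0.711 CPM) in PlyA-KI, against 19 and 43 counts (0.483 and 0.906 CPM) in wild type. Tap2 had 6 and 10 counts in PlyA-KI, against 13 and 8 counts in wild type. Their log2 fold changes of −0.07 and −0.19 had 95% intervals of −1.15 to 1.01 and −1.78 to 1.40 (adjusted p = 0.969 and 0.938 by edgeR), so a change by the size seen in Lockd shRNA was not detectable at this depth.

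Tapbp had 14.5 and 10.7 CPM in PlyA-KI, against 14.9 and 14.1 CPM in wild type. Its log2 fold change was −0.21 (95% interval −0.55 to 0.13, adjusted p = 0.600 by edgeR). PlyA-KI 1 lay between the wild type libraries and PlyA-KI 2 below them.

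Psmb10 had 2.29 and 2.76 CPM in PlyA-KI, against 1.98 and 3.10 CPM in wild type (log2 fold change −0.03, 95% interval −0.68 to 0.63, adjusted p = 0.981 by edgeR). Psmb8 had 6 and 10 counts in PlyA-KI, against 4 and 18 counts in wild type (−0.20, 95% interval −1.93 to 1.53, adjusted p = 0.941 by edgeR). Without wild type 1 the Psmb8 value was −0.81 and without wild type 2 it was 1.06. Psmb9 had 3 and 6 counts in PlyA-KI, against 4 and 4 counts in wild type, and was left out by the filter on low counts. Nlrc5 had 11 and 9 counts in PlyA-KI, against 11 and 14 counts in wild type (−0.11, 95% interval −1.46 to 1.23, adjusted p = 0.960 by edgeR). The counts of Psmb8 and Nlrc5 leave wide intervals.

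Of all 15398 genes tested, edgeR called 8, 0.0455% of the genes higher and 0.00649% lower, and none of the 9 class I genes tested in either direction. At an unadjusted p under 0.05 there were 0 of the 9, beside 1921 of all genes, and the median log2 fold change of the 9 was −0.07, beside 0.01 over all genes. DESeq2 called 0 of the 10, giving 5 of them no adjusted p. It called 0.582% of 19773 genes, of which 7667 had no adjusted p. Limma-trend called 0 of the 9. Non-overlapping groups were found for 0 of the 10. Among 13295 genes with a mean of 1 CPM or more, 20.9% were lower without overlap and 24.1% higher. Tap1, Tap2, Psmb8, Psmb9 and Nlrc5 had means under 1 CPM in both groups and so fall outside these shares. Lockd was the gene lower in PlyA-KI among the 8 called by edgeR (log2 fold change −8.12, adjusted p = 2.98e-07).

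Across the 4 groups the levels stood in steps. For B2m, H2-D1, H2-K1, Tap1, Tap2, Tapbp, Psmb8 and Psmb9, control plasmid was highest, Lockd shRNA next, and PlyA-KI and wild type lowest. The groups did not overlap at either step. The step from control plasmid to Lockd shRNA is the contrast that chose the genes. Lower there without overlap were 19.9% of all genes with a mean of 1 CPM or more. The share of all genes that stand in this order of groups was not counted. PlyA-KI and wild type overlapped for all 10 genes. Psmb10 was highest in Lockd shRNA, with overlap with control plasmid, and Nlrc5 in control plasmid, with overlap with Lockd shRNA. For both, each sorted library lay above each library of whole cortex.

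The size of the step between the experiments differed widely between genes. The control plasmid mean over the wild type mean was 20.9 for Psmb8, 20.2 for Psmb9 on 8 wild type counts, 17.4 for Tap1, 15.8 for H2-D1, 12 for Nlrc5, 11.7 for Tap2, 6.68 for H2-K1 and 5.34 for B2m. It was 2.14 for Psmb10 and 1.22 for Tapbp. A ratio of 5 or more was thus found for 8 of the 10 genes, beside 2.99% of 14432 genes (median ratio 0.992). Control plasmid is the group whose higher levels chose the genes. With Lockd shRNA over wild type, 5 of the 10 genes had a ratio of 5 or more, beside 3.20% of 14421 genes (median ratio 0.977), and B2m was at 2.49. Both shares cover genes with a wild type mean of at least 0.05 CPM and means of the 2 groups summing to at least 1 CPM. Psmb9, among these 5, is below that sum, with means of 0.717 CPM in Lockd shRNA and 0.0930 CPM in wild type. The experiments differ in strain, age, electroporation and sort, which cannot be told apart, so no test was made. H2-D1 and H2-K1 are also polymorphic between strains. The transcripts of H2-D1 shared 26.7% of their 31-base stretches with other genes, and those of H2-K1 22.8%, so their values may depend on how reads of similar copies were counted. B2m shared 0% with any other gene. Of genes whose positions overlap a member, Patl2 in B2m had at most 2 counts in a library, Gm19412 in Tapbp at most 10 and 9330175E14Rik in Nlrc5 had 0.

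Per length, the balance of the class I subunits also differed between the experiments. H2-D1 and H2-K1 together had 1.27 and 1.32 times the FPKM, a count scaled by gene length and library total, of B2m in Lockd shRNA, against 1.28 and 1.16 times in control plasmid. The same ratio was 0.566 and 0.486 in PlyA-KI, against 0.592 and 0.510 in wild type. Within each experiment the groups overlapped, and each sorted library lay above each library of whole cortex. In mean FPKM, B2m had 40.2 in Lockd shRNA, 86.1 in control plasmid, 17.7 in PlyA-KI and 16.1 in wild type. B2m, H2-D1 and H2-K1 made up 78.8% and 77.1% of the summed CPM of the 10 genes in Lockd shRNA, against 83.3% and 84.8% in control plasmid.

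The immunoproteasome subunits can be set against the standard subunits whose place they take. Psmb8 reached 2.57% and 2.77% of the FPKM of Psmb5 in Lockd shRNA, against 8.53% and 7.24% in control plasmid. Psmb9 reached 0.734% and 0.247% of the FPKM of Psmb6 in Lockd shRNA, against 1.36% and 1.49% in control plasmid. Psmb10 reached 3.25% and 3.06% of the FPKM of Psmb7 in Lockd shRNA, against 3.28% and 2.89% in control plasmid. The groups of the Psmb8 and Psmb9 ratios did not overlap, those of the Psmb10 ratio did. In whole cortex Psmb8 was at 0.232% and 0.437% of Psmb5 in PlyA-KI, against 0.179% and 0.587% in wild type.

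**Figure D3:**
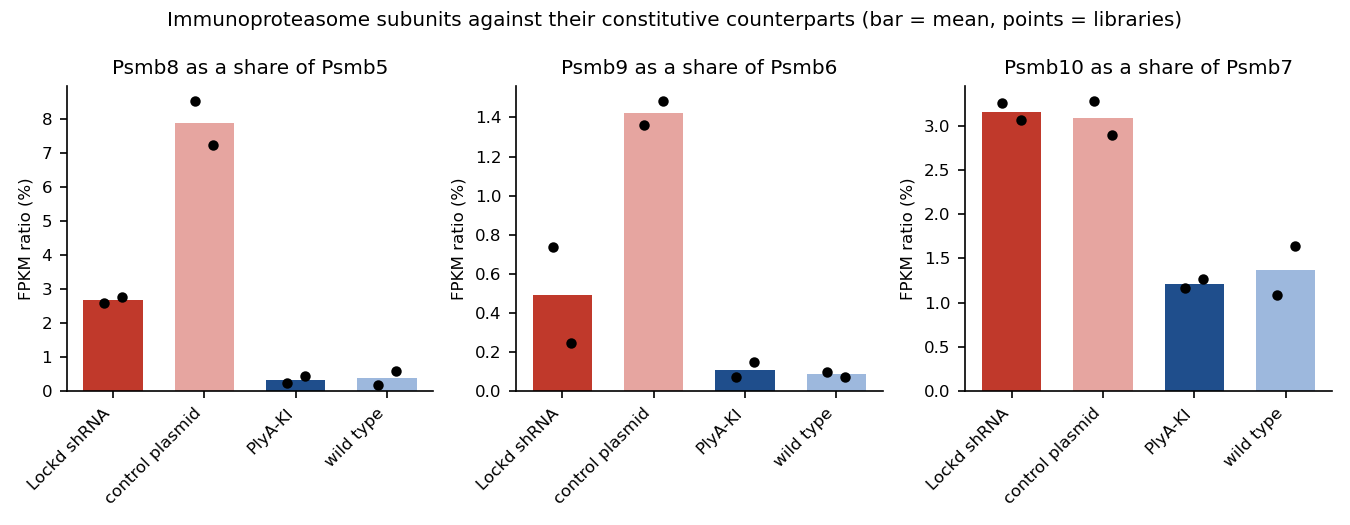
FPKM of Psmb8, Psmb9 and Psmb10 as a percentage of the FPKM of the standard subunit each replaces (y axis from 0), with bars for group means and points for libraries. The share for Psmb8 is 2.57% and 2.77% in Lockd shRNA and 8.53% and 7.24% in control plasmid, while that for Psmb10 is 3.25% and 3.06% in Lockd shRNA and 3.28% and 2.89% in control plasmid.

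The rest of the class I pathway was read from lists chosen by function. The 3 standard catalytic subunits Psmb5, Psmb6 and Psmb7 had a median log2 fold change of 0.17 in Lockd shRNA over control plasmid and 0.10 in PlyA-KI over wild type. The 12 other genes of the proteasome core and its assembly, such as Psma7 (0.07, SE 0.13) and Psma1 (0.01, SE 0.12) for Lockd shRNA, had medians of 0.07 and 0.11. The 3 genes of the proteasome activator had medians of −0.03 and 0.08. In these 3 lists edgeR called 0 genes in either comparison (0 at an unadjusted p under 0.05 for Lockd shRNA and 1 for PlyA-KI), and DESeq2 called 0.

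Among 7 chaperones and trimming enzymes of peptide loading, the median was −0.05 in Lockd shRNA over control plasmid and −0.02 in PlyA-KI over wild type, with 0 called by edgeR or DESeq2 and 1 and 0 at an unadjusted p under 0.05. Calr, which encodes the lectin chaperone calreticulin, had 461 ± 39.3 CPM in Lockd shRNA and 507 ± 22.4 CPM in control plasmid (SD, n = 2 each). Canx, which encodes its membrane-bound relative calnexin, had 313 ± 31.3 CPM in Lockd shRNA and 330 ± 23.5 CPM in control plasmid (SD, n = 2 each). These abundant chaperones serve glycoproteins in general. The gene of the list at an unadjusted p under 0.05 was Erap1, which encodes a peptide-trimming enzyme and is named here after its values were seen. It had 27 and 24 counts in Lockd shRNA, against 49 and 55 counts in control plasmid.

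Of 19 other class I and class I-like genes, 9 passed the filter in the knockdown experiment, with a median of −0.11 that ran from −0.72 without control plasmid 2 to 0.11 without control plasmid 1. H2-Q4, a non-classical heavy chain with close copies nearby, had 13.1 and 12.1 CPM in Lockd shRNA, against 30.5 and 19.6 CPM in control plasmid. Cd1d1, which presents lipids to natural killer T cells, had 60.1 and 67.8 CPM in Lockd shRNA, against 65.5 and 55.6 CPM in control plasmid. H2-Q4 was lower without overlap, while the groups of Cd1d1 overlapped. In PlyA-KI over wild type the median of 11 tested genes was 0.18. EdgeR called 0 genes of this list in either comparison, with 3 at an unadjusted p under 0.05 for Lockd shRNA and 0 for PlyA-KI, and DESeq2 called 0, giving 13 and 9 of them no adjusted p.

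Of the 12 transcription factors known to bind class I promoters, 0 were called in either comparison by edgeR or DESeq2, with 0 and 1 at an unadjusted p under 0.05. Their median was −0.17 in Lockd shRNA over control plasmid and −0.04 in PlyA-KI over wild type. Creb1, a factor of the X2 box, was at −0.17 (SE 0.14), and Nfyb, a subunit of the factor of the Y box, at 0.05 (SE 0.14), for Lockd shRNA over control plasmid. The 13 tested genes of interferon receptors and signalling had a median of −0.05 and the 12 tested for PlyA-KI a median of 0.04, with 0 called by edgeR or DESeq2 and 0 at an unadjusted p under 0.05. Ifnar1, a chain of the type I interferon receptor, was at 0.08 (SE 0.12) and Jak2, a receptor kinase, at −0.0019 (SE 0.14) for Lockd shRNA.

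Interferon-stimulated genes outside the class I pathway mostly lay lower in Lockd shRNA than in control plasmid. Of 34 listed, 25 passed the filter and 24 of these lay below 0, with a median of −0.49. EdgeR and DESeq2 called 0, with 1 at an unadjusted p under 0.05 and no adjusted p from DESeq2 for 24. The median was −0.92 without Lockd shRNA 1 and 0.08 without control plasmid 1, so a single library decided its direction. Trim25 and Ifit2 had the highest mean CPM of the list. Their log2 fold changes were −0.32 (SE 0.22) and −0.49 (SE 0.22) for Lockd shRNA over control plasmid. Ifit2, which encodes an RNA-binding antiviral protein, had 8.69 ± 0.474 CPM in Lockd shRNA and 12.4 ± 1.34 CPM in control plasmid (SD, n = 2 each). In PlyA-KI over wild type the 22 tested genes had a median of 0.04, with 0 called by either tool and 0 at an unadjusted p under 0.05. None of the 10 class I genes is in this list.

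MHC class II genes, which serve antigen presentation to helper T cells, were at low levels throughout. The 7 listed summed to 3.36 to 3.71 CPM in Lockd shRNA, against 2.93 to 4.92 CPM in control plasmid. They summed to 1.68 to 2.44 CPM in PlyA-KI, against 1.78 to 2.84 CPM in wild type, and the groups overlapped in both experiments. With few counts, 2 of the 7 could be tested in the sorted cells and 3 in whole cortex, and edgeR called none in either. At an unadjusted p under 0.05 it had 0 in the sorted cells and 1 in whole cortex, and DESeq2 called 0, giving 6 and 7 of the 7 no adjusted p. Ciita, the class II counterpart of Nlrc5, averaged 2.15 ± 0.511 CPM in Lockd shRNA and 1.74 ± 0.193 CPM in control plasmid (SD, n = 2 each). The 5 receptors and signalling genes that bind or follow class I on other cells summed to 1.04 to 2.89 CPM in Lockd shRNA, against 1.25 to 3.44 CPM in control plasmid.

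**Figure D4:**
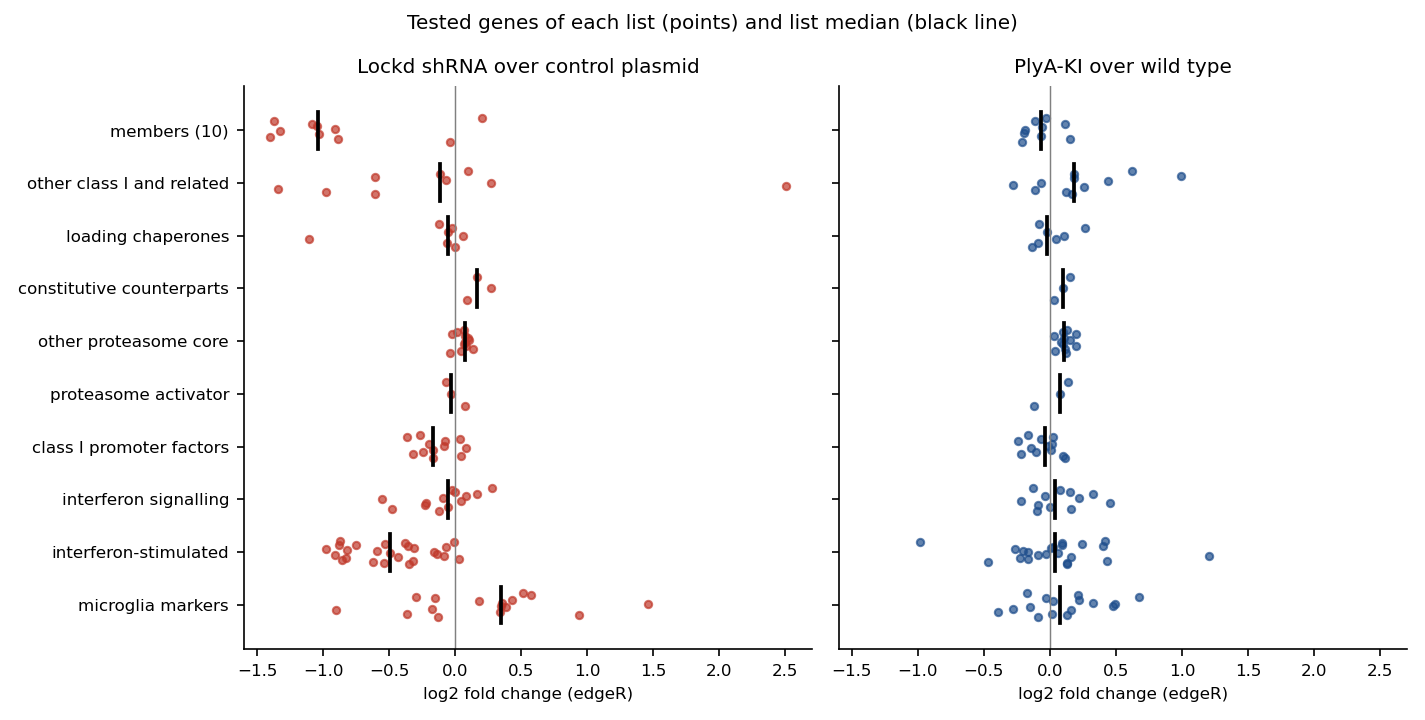
Log2 fold change (x axis, edgeR) of the tested genes of the 10 class I genes and 9 related lists, for Lockd shRNA over control plasmid (left) and PlyA-KI over wild type (right); points are genes and black lines are medians. The class I genes have a median of −1.04 on the left and −0.07 on the right, where 9 were tested, and the interferon-stimulated genes −0.49 and 0.04.

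Markers of cells outside the neural lineage differed between libraries. All 16 microglia markers had counts in all 8 libraries. Their summed level was 42.0 and 47.7 CPM in Lockd shRNA, against 57.6 and 19.1 CPM in control plasmid. Control plasmid 2 was thus lowest and control plasmid 1 highest, and the groups overlapped. The markers' median log2 fold change was 0.34, running from −0.47 without control plasmid 2 to 1.61 without control plasmid 1. The part of these markers in the class I difference was not tested.

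The summed level of interferon-stimulated genes was 124 and 81.6 CPM in Lockd shRNA, against 173 and 101 CPM in control plasmid, and the groups overlapped. Endothelial markers summed to 5.15 and 6.35 CPM in Lockd shRNA, against 7.42 and 3.90 CPM in control plasmid. Lymphocyte markers summed to at most 0.432 CPM in any library, with Cd3e, Cd3g and Gzma at 0 counts in all 8. Progenitor markers summed to 941 to 1028 CPM in Lockd shRNA, against 1246 to 1323 CPM in control plasmid. Neuron markers summed to 6066 to 6204 CPM in Lockd shRNA, against 5050 to 5491 CPM in control plasmid. The groups did not overlap in either sum, though Hes5 (log2 fold change 0.11, SE 0.32) and Neurod6 (−0.03, SE 0.16) went against their lists. In whole cortex, progenitor markers summed to 2098 to 2169 CPM in PlyA-KI, against 2408 to 2443 CPM in wild type. Neuron markers summed there to 3710 to 4593 CPM in PlyA-KI, against 2987 to 3644 CPM in wild type. The PlyA-KI and wild type groups did not overlap in either of these sums. The part of this balance in the class I difference was not tested.

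In whole cortex, cells of vessels, meninges and blood had higher marker levels than in sorted cells. Endothelial markers summed to 127 to 158 CPM in PlyA-KI, against 142 to 152 CPM in wild type. Pericyte and meningeal markers summed to 178 and 404 CPM in PlyA-KI, against 217 and 227 CPM in wild type. Microglia markers summed to 28.6 and 55.7 CPM in PlyA-KI, against 41.9 and 39.1 CPM in wild type. PlyA-KI 2 was the highest of the 4 libraries in all of these sums, as it was for B2m, H2-D1 and H2-K1. The part of these markers in the spread of the class I genes was not tested. The 10 class I genes summed to 43.2 and 51.4 CPM in PlyA-KI, against 46.1 and 48.8 CPM in wild type, below each sorted library.

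**Figure D5:**
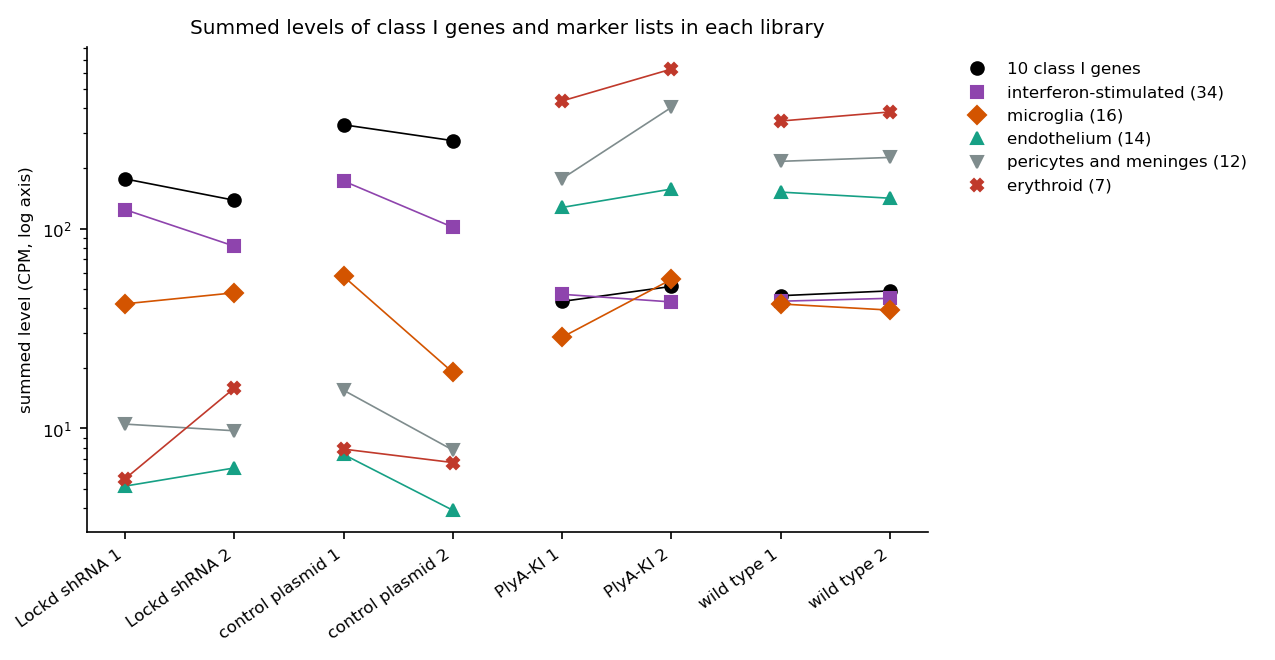
Summed level (CPM, log axis) of the 10 class I genes, of interferon-stimulated genes and of 4 lists of cell type markers in each of the 8 libraries; lines join libraries of a group. The class I sum is 177 and 139 CPM in Lockd shRNA, 330 and 275 CPM in control plasmid and at most 51.4 CPM in whole cortex, while endothelial, pericyte and meningeal, and erythroid markers are highest in whole cortex.

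The genes whose pattern over the 8 libraries was most like that of B2m were ranked by the root mean square difference in log2(CPM + 0.5), each gene centred on its mean in each experiment. Among 10269 genes with a mean of 5 CPM or more in both experiments, H2-D1 had rank 1, at 0.111, and H2-K1 rank 6, at 0.161. Between them stood Spdl1 (0.154), Cdca7 (0.156), Slc25a13 (0.157) and Ndc80 (0.160). The median over all ranked genes was 0.448. Tapbp had rank 7281, at 0.480, and the other 6 members were below 5 CPM in an experiment and were not ranked. The pattern shares the contrast that chose the genes, so these distances are a description.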

How the data were processed

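RNA was sequenced from 8 libraries, 2 in each of 4 groups taken from the labels. TRIzol was used for RNA extraction and the KAPA Hyper Prep kit for libraries of captured, fragmented mRNA, per the labels' protocols. The submitters' processing notes name featureCounts, HISAT2, Trimmomatic, bcl2fastq and the mm10 build, without versions; annotation and strand setting were not given in the sources used. The authors deposited whole-number counts per gene, which were the values tested, and beside them FPKM, whose implied gene length was a whole number (tolerance 0.001) for every gene.

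CPM was computed here from each library's total count. The 4 libraries of an experiment were fitted together, apart from the other experiment, in edgeR 4.0.16 (R 4.3.3), using filterByExpr, TMM factors (0.993 to 1.013) and the quasi-likelihood test, with Benjamini-Hochberg adjustment over all genes and a threshold of 0.05. DESeq2 1.42.0 and limma-trend (limma 3.58.1) on log2(FPKM + 0.1) were alternatives, beside other filters, scalings, a fit of all 8 libraries, a replicate block and leaving out each library. The script was tested on simulated counts. The members, the gene lists and the motifs were chosen with earlier results of these data known. Named beside the members are the genes of each list that were called in PlyA-KI and those with the highest mean CPM, and the 5 genes most like B2m. Counting error alone sets the limit of 3 counts.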

Additional observations from a re-analysis of the deposited data

How the results depend on the processing

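For PlyA-KI over wild type, 0 of the class I genes tested were called under every alternative run, and the smallest adjusted p among the 91 alternative values that had one was 0.241. The number of all genes called, 8 by edgeR, was also 8 with DESeq2 size factors and with a minimum of 1 CPM in 2 libraries, and 6 with limma-trend. It was 484 with no filter on low counts, 115 with DESeq2, 4 in a fit of all 8 libraries, and from 48 without wild type 2 to 565 without PlyA-KI 2 with a library left out. For Lockd shRNA over control plasmid the count, 0 by edgeR, was also 0 with DESeq2 size factors, the 1 CPM filter and limma-trend. It was 184 with no filter, 48 with DESeq2, 53 in a fit of all 8 libraries, and from 18 without control plasmid 2 to 133 without control plasmid 1 with a library left out. With the replicate number as a block, 161 genes were called for Lockd shRNA and 2193 for PlyA-KI, and the class I genes called were 4 of 10 for Lockd shRNA and 0 for PlyA-KI. For Lockd shRNA, the contrast that chose them, 5 of the 10 were called with no filter, 3 with DESeq2, 3 in the fit of all 8 libraries and 2 to 4 with a library left out. Deviations of same-numbered libraries correlated at 0.382 and 0.337, but with 2 pairs the numbers are not shown to pair the libraries. The cause of these changes in the number of calls was not tested. Of the alternative fold changes for Lockd shRNA, 103 moved by less than 1 SD between replicates and 7 by more. All 7 arose from leaving out Lockd shRNA 1, Lockd shRNA 2 or control plasmid 1. That SD comes from the same libraries, and leaving out 1 of 2 can hardly move a mean of log2 CPM beyond it. The 103 are therefore not a measure of stability. Low counts limit Psmb8, Psmb9, Tap2 and Nlrc5 most.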

Other observations

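A pair of non-classical class I genes, named here after their values were seen, differed between the experiments in opposite directions. H2-T10 had 111 and 62 counts in Lockd shRNA, against 130 and 122 counts in control plasmid. It had 19 and 6 counts in PlyA-KI, against 0 and 6 counts in wild type. H2-T24 had 12 and 20 counts in Lockd shRNA, against 4 and 1 counts in control plasmid, and 257 and 229 counts in PlyA-KI, against 300 and 383 counts in wild type. Strain, age and sort cannot be told apart between the experiments, and reads of both strains were set against 1 mm10 assembly.

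The spacing TGACG, 20 bases, ATTGG found in the B2m, H2-D1 and H2-K1 promoters was present in the promoters of 27 genes. Of the 24 that are not among the 10 class I genes, 18 passed the filter for Lockd shRNA over control plasmid. Their median log2 fold change was −0.05, from −1.02 for Znrd1as, an antisense transcript, to 0.30 for Per1, a circadian clock gene. For PlyA-KI over wild type the 20 tested had a median of −0.08, and edgeR called 0 of them.

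Alas2, which encodes the first enzyme of haem synthesis in red cells, was the marker gene called in PlyA-KI. It had 19.9 and 19.1 CPM in PlyA-KI, against 10.3 and 8.89 CPM in wild type (log2 fold change 1.01, SE 0.13, adjusted p = 0.0229 by edgeR). All 7 tested erythroid markers lay above 0 there, with a median of 0.55.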
